A study of Homo sapiens with 9 samples.

Results

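The 8 genes CDX1, CDX2, HNF4A, HNF4G, GATA4, GATA6, KLF4 and KLF5 encode transcription factors that set and maintain the intestinal identity of epithelial cells. They are named genes and not a class set by a threshold on their values, although earlier results of these data were known when they were picked, and they were taken from the 63677 gene identifiers counted in 9 libraries of 3 human colon cancer lines, with 3 libraries per line. SW480 is the parental line, of wild-type genotype and with no construct named. All 9 libraries, the parental ones included, carry the same treatment label, which names BASP1 activation, so the lines were told apart by title and genotype. SW480-B is 1 clone of it, selected with G418, that carries the BASP1 coding sequence under the CMV promoter of pcDNA3. SW480-gRNA-B-all carries dCas9-VP64, the MS2-P65-HSF1 activator and a pool of guide RNAs for the BASP1 promoter, delivered by lentivirus. It descends from a hygromycin-selected SW480 line cloned from GFP-positive cells, and was selected with puromycin after the guides were added. BASP1 is a transcriptional corepressor that is nearly silent in SW480, and the study asked how colon cancer cells change once it is expressed again. A cell line made with an empty vector or with unrelated guides was not analysed here, so an effect of BASP1 cannot be told apart from those of cloning, selection or the activator.

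The CDX homeodomain proteins specify hindgut endoderm during development, and CDX2 is widely used as a marker of colorectal origin in pathology. HNF4A and HNF4G are nuclear receptors that act together with CDX2 at enhancers of enterocyte genes. GATA4 and GATA6 are zinc finger factors of endoderm, GATA4 being restricted to the proximal small intestine and GATA6 reaching into the colon. Of the Krüppel-like factors, KLF4 is associated with differentiated surface cells that have left the cell cycle, whereas KLF5 is associated with dividing crypt cells.

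To show the regulatory sequence of the genes on which the results turn, the RefSeq promoter windows (build GRCh38.p14, 250 bases before to 50 bases after an annotated start, 5′ to 3′ on the strand of the gene) are given for CDX2, for both starts of HNF4A and for the GC-rich start of KLF5. Capitals mark matches on either strand to any of 7 motifs. The letters searched were TTTATG for CDX factors and CAAAGT for HNF4. For GATA factors AGATAA was searched, for TCF factors CTTTGA, and for the boxes bound by KLF and SP factors GGGCGG (the GC box) and CCACCC. For WT1, a DNA-binding protein that recruits BASP1, the letters were GCGTGGGNG. No match of one motif overlapped one of another in the windows shown.
CDX2, chr13:27969266-27969565, minus strand: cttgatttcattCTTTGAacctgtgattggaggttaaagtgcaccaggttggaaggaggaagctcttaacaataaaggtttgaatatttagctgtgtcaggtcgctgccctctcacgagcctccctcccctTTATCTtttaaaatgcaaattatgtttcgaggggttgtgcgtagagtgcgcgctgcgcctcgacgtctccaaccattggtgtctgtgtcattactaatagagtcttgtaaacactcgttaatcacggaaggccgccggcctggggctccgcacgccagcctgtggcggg
HNF4A, upstream start, chr20:44355449-44355748, plus strand: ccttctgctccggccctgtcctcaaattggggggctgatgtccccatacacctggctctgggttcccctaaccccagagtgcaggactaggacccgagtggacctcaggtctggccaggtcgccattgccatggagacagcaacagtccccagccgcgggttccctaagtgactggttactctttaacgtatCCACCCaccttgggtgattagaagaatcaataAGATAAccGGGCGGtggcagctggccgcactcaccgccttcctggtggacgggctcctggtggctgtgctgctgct
HNF4A, downstream start, chr20:44400989-44401288, plus strand: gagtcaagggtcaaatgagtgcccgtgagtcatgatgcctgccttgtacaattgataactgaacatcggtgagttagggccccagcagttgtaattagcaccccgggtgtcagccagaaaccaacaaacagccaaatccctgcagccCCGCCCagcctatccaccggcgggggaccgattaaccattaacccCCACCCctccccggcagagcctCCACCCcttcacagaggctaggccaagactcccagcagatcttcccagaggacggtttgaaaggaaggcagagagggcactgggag
KLF5, chr13:73058755-73059054, plus strand: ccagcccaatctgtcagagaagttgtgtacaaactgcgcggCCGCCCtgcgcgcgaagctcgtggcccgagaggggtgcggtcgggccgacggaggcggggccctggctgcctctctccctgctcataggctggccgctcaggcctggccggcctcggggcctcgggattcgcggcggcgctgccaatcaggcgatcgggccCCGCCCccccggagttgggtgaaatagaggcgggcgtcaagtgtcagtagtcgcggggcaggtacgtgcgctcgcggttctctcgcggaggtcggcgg
The CDX2 window has a GC content of 50.3%, with a GATA match at 119 and a TCF match at 238 bases before the start. Both HNF4A windows hold the CCACCC letters 58 bases before the start, the downstream window also 36 bases before it, and the upstream window has a GATA match 26 bases before the start. In the KLF5 window, with 71.3% GC, only 2 GC box matches were found. Of all 35116 windows, 10.3% hold the GATA letters, 12.9% the TCF letters, 34.3% the CCACCC letters, 45% the GC box, 10.6% the CDX letters, 11.9% the HNF4 letters and 2.80% the WT1 letters. Neither the CDX, the HNF4 nor the WT1 letters occur in the 4 windows printed. These matches describe letters and are not binding sites measured here, and counts per gene do not separate the 2 HNF4A promoters.

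Levels are given as CPM, counts scaled to the library total with TMM factors, and a gene was called when edgeR's quasi-likelihood test gave it a Benjamini-Hochberg adjusted p under 0.05 and its change exceeded 2-fold. The libraries held 25238831 to 29355669 counts on genes, and a count of 0 in a library allows a level of up to 0.1022 to 0.1189 CPM, a limit of 3 counts that covers counting error only. BASP1 had 19 to 345 counts in the libraries of SW480, 6924 to 7531 in those of SW480-B and 4922 to 9087 in those of SW480-gRNA-B-all. Of the epithelial markers, EPCAM (281 to 751 CPM), KRT8 (3550 to 6210 CPM) and KRT18 (1650 to 3580 CPM) were abundant in every library, although keratin reads may be shared with pseudogenes, whereas the colonic keratin KRT20 did not exceed 0.896 CPM in any. The SW480 libraries differed from each other more than those of the other lines: the highest library exceeded the lowest by a median of 1.74-fold over genes tested, against 1.60-fold in SW480-B and 1.31-fold in SW480-gRNA-B-all. Within SW480-gRNA-B-all, 2.08% of genes differed by more than 2-fold between replicates 2 and 3, and between any other pair of replicates of a line 11.1% to 30.8% did. Where nothing in the labels says that replicates came from separate cultures, the p-values measure only the spread between these libraries, which may be technical.

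Of the 8 factors, CDX2, HNF4A, GATA6, KLF4 and KLF5 had enough counts to be tested in all 3 comparisons. CDX1 and HNF4G were detected mainly in SW480 and failed the filter on low counts, and GATA4 had 0 counts in all 9 libraries. In SW480-gRNA-B-all, CDX2 and KLF5 were called lower than in SW480, and CDX2 and KLF5 were called lower and GATA6 higher than in SW480-B. No factor was called between SW480-B and SW480, where CDX2 had the higher level in SW480-B. Both comparisons with SW480 rest on the same 3 SW480 libraries. In bulk RNA, fewer cells that express a gene and less of its RNA per cell cannot be told apart.

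**Figure D1:**
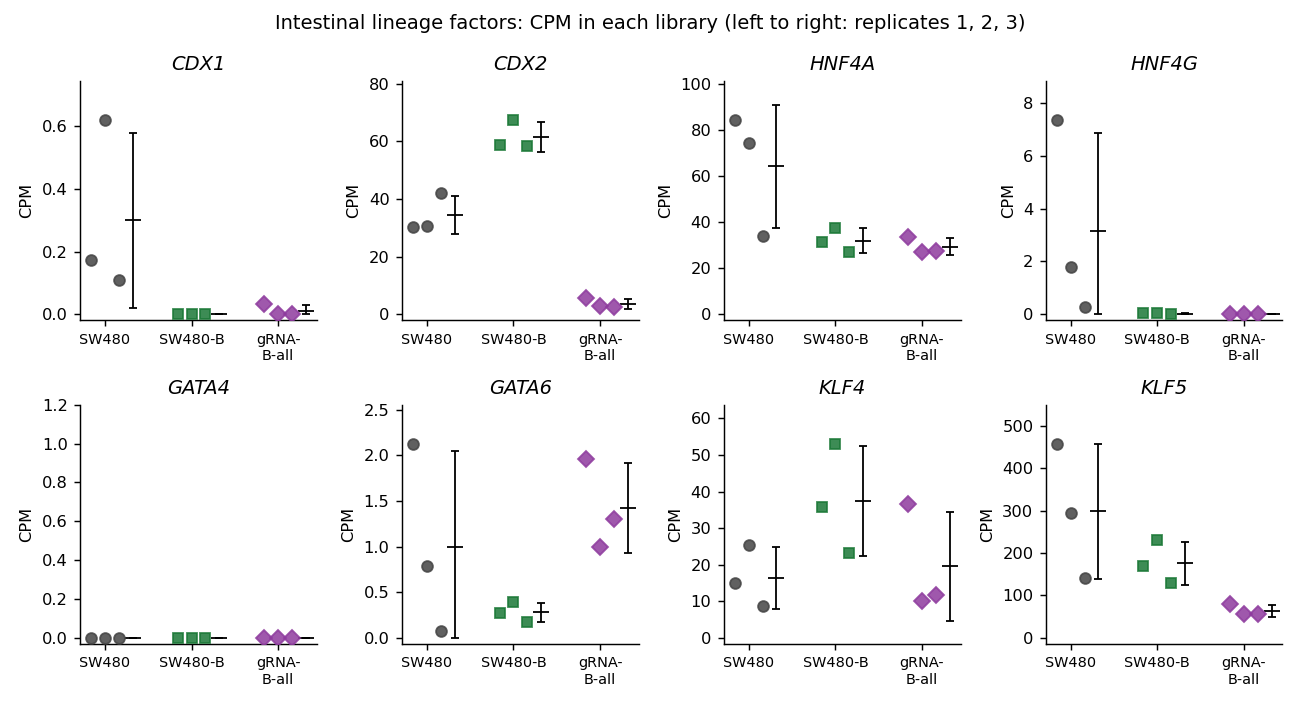
CPM of the 8 factors in the 3 libraries of each line, with circles for SW480, squares for SW480-B and diamonds for SW480-gRNA-B-all, and beside them the mean with its SD (n = 3, drawn no lower than 0); each panel has its own linear axis. The CDX2 points of SW480-gRNA-B-all, from 2.37 to 5.52 CPM, lie under those of SW480 (30.4 to 41.9 CPM), which lie under those of SW480-B (58.2 to 67.4 CPM), and GATA4 lies at 0 throughout.

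CDX2 (ENSG00000165556), on chromosome 13 of GRCh37 from 28535055 to 28543452 on the minus strand, had 30.4, 30.7 and 41.9 CPM in the SW480 libraries. In SW480-B it had 58.6, 67.4 and 58.2 CPM, and in SW480-gRNA-B-all 5.52, 2.70 and 2.37 CPM. The 3 lines did not overlap, and they lay in opposite directions from SW480: higher in SW480-B and lower in SW480-gRNA-B-all. In SW480-gRNA-B-all CDX2 fell by 3.28 on the log2 scale, from 34.3 ± 6.55 to 3.53 ± 1.73 CPM (SD, n = 3 each, SE, the standard error of the log2 value, 0.38, adjusted p = 0.009). Against SW480-B, at 61.4 ± 5.18 CPM (SD, n = 3), it fell by 4.12 (SE 0.34, adjusted p = 0.00099), a 17.4-fold lower level. The rise from SW480 to SW480-B had a log2 fold change of 0.87 (SE 0.22, adjusted p = 0.12) and was not called. Of all genes tested, 6.55% were called in either direction between SW480-gRNA-B-all and SW480, 6.68% between SW480-gRNA-B-all and SW480-B and 1.34% between SW480-B and SW480. Calls split into 0.0931% higher and 1.25% lower in SW480-B, and for SW480-gRNA-B-all into 1.89% and 4.66% relative to SW480 and 2.31% and 4.37% relative to SW480-B. The libraries of SW480-B lay wholly above those of SW480 for 10.6% of genes tested, and those of SW480-gRNA-B-all wholly below those of SW480 for 20% and of SW480-B for 15.4%. The call against SW480-B held in all 6 fits that each left out 1 library. That against SW480 held in 3 of 6 and was lost without replicate 2 of SW480 (adjusted p = 0.055), without replicate 2 of SW480-gRNA-B-all (adjusted p = 0.0553) and without its replicate 3 (adjusted p = 0.0503), with log2 fold changes between -3.75 and -3.06. It was also lost when replicates 2 and 3 of that line were summed (adjusted p = 0.0502).

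CDX1 (ENSG00000113722), the other intestinal CDX gene, lies on chromosome 5 from 149546341 to 149564121. It had 5, 18 and 3 counts in the SW480 libraries, at most 0.620 CPM. In SW480-B it had 0 counts in each library, and in SW480-gRNA-B-all 1, 0 and 0 counts. At 26 counts in SW480 against 0, CDX1 was at least 8.33-fold lower in SW480-B, or 3.88-fold if replicate 2 of SW480 is left out. In SW480-gRNA-B-all the ratio was 27.2-fold lower, with a counting interval from 4.46 to 1110, or from 1.70 without replicate 2 of SW480. CDX1 was thus detected in SW480 alone beyond a single count, at a level far under that of CDX2 there.

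HNF4A (ENSG00000101076), on chromosome 20 from 42984339 to 43061485, had 84.5, 74.6 and 34.2 CPM in SW480. Its levels in SW480-B were 31.5, 37.6 and 27.0 CPM, and in SW480-gRNA-B-all 33.5, 26.9 and 27.4 CPM. Replicate 3 of SW480 lay within the range of SW480-B and just above the highest library of SW480-gRNA-B-all. From SW480 it changed by -1.14 on the log2 scale in SW480-gRNA-B-all (SE 0.34, adjusted p = 0.081) and by -0.98 in SW480-B (SE 0.34, adjusted p = 0.23), and neither was called. Without replicate 3 of SW480, HNF4A was called lower in both lines. The change was -1.28 in SW480-B (adjusted p = 0.023, against 0.023 to 0.48 over the fits without 1 library) and -1.42 in SW480-gRNA-B-all (adjusted p = 0.0072, against 0.0072 to 0.24). A fit of all 9 libraries together (adjusted p = 0.041) and DESeq2 (adjusted p = 0.025) also called it in the SW480-gRNA-B-all line, with 0.025 to 0.24 over the fits that kept every library. Between the BASP1-expressing lines its log2 fold change was -0.13 (SE 0.19, adjusted p = 0.71). Genes annotated within the HNF4A interval, including HNF4A-AS1 on the opposite strand, had at most 2 counts in any library.

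HNF4G (ENSG00000164749), its paralog on chromosome 8 from 76320149 to 76479069, varied 28.9-fold among the SW480 libraries, with 214, 52 and 7 counts or 7.37, 1.79 and 0.255 CPM. SW480-B had 1, 1 and 0 counts, and SW480-gRNA-B-all had 0 counts in all 3 libraries. Every SW480 library lay above every library of the other lines. Of all genes tested, 11.8% lay wholly below SW480 in SW480-B and 20% in SW480-gRNA-B-all. In SW480-gRNA-B-all HNF4G was at least 95.1-fold lower, or 31.1-fold if replicate 1 of SW480 is left out, and in SW480-B the ratio was 131-fold lower, with a counting interval from 36.0 to 1090 (42.9-fold without replicate 1 of SW480). These intervals cover counting error and not the spread among the SW480 libraries. With no filter on low counts the edgeR adjusted p of HNF4G was 0.039 in SW480-B and 0.15 in SW480-gRNA-B-all, and with DESeq2 3.3e-05 and 0.00092. For CDX1 the corresponding values were 0.028 and 0.067 from edgeR and 0.0456 and 0.0475 from DESeq2.

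GATA6 (ENSG00000141448), on chromosome 18 from 19749550 to 19782491, was scarce in all lines, with 62, 23 and 2 counts in SW480, or 2.13, 0.793 and 0.0727 CPM. SW480-B had 7, 11 and 5 counts, at 0.271, 0.392 and 0.177 CPM, and SW480-gRNA-B-all had 58, 30 and 39 counts, at 1.96, 1.00 and 1.30 CPM. The SW480 libraries spanned both other lines, whereas SW480-gRNA-B-all lay wholly above SW480-B, as 15% of genes tested did. Against SW480-B, GATA6 passed the filter on low counts through SW480-gRNA-B-all alone, which fixes its direction. It was called higher in the SW480-gRNA-B-all line than in SW480-B, with a log2 fold change of 2.33 (SE 0.47, adjusted p = 0.021). This call held in 2 of the 6 fits without 1 library, and was lost without replicate 1 (adjusted p = 0.068) or 2 (adjusted p = 0.0521) of SW480-B and without replicate 2 (adjusted p = 0.0529) or 3 (adjusted p = 0.078) of SW480-gRNA-B-all. It was also lost when all 9 libraries were fitted together (adjusted p = 0.18) and when replicates 2 and 3 of SW480-gRNA-B-all, which are very alike, were summed (adjusted p = 0.06). Its change from SW480 was 0.50 on the log2 scale in SW480-gRNA-B-all (SE 0.90, adjusted p = 0.74) and -1.79 in SW480-B (SE 0.96, adjusted p = 0.41, or -0.61 without replicate 1 of SW480). GATA6-AS1, on the opposite strand, had at most 5 counts in any library. GATA4 (ENSG00000136574), on chromosome 8 from 11534468 to 11617511, was not detectable at this depth in any line.

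KLF4 (ENSG00000136826), on chromosome 9 from 110247133 to 110252763, had 14.9, 25.5 and 8.66 CPM in SW480. It had 35.8, 53.1 and 23.2 CPM in SW480-B and 36.7, 10.2 and 11.7 CPM in SW480-gRNA-B-all. Replicate 1 of SW480-gRNA-B-all reached the levels of SW480-B, and its other libraries lay within the range of SW480. In SW480-B the log2 fold change was 1.22 (SE 0.44, adjusted p = 0.24), which did not pass the threshold. A block for the replicate number, which in this comparison pairs libraries that deviated together, made KLF4 a called gene, at 1.28 (SE 0.21, adjusted p = 0.035, with 0.035 to 0.26 over the fits that kept every library). In SW480-gRNA-B-all it changed by 0.25 from SW480 (SE 0.59, adjusted p = 0.80) and by -0.94 from SW480-B (SE 0.50, adjusted p = 0.30). Without replicate 1 of SW480-gRNA-B-all these became -0.57 (adjusted p = 0.47) and -1.75 (adjusted p = 0.03), the second of which was called.

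KLF5 (ENSG00000102554), on chromosome 13 from 73629114 to 73651679, was the most abundant of the 8 factors per kilobase of exon, with 458, 295 and 142 CPM in SW480. It had 169, 230 and 129 CPM in SW480-B and 80.8, 55.2 and 55.3 CPM in SW480-gRNA-B-all. All SW480-gRNA-B-all libraries lay under those of both other lines, which overlapped each other. KLF5 fell by 2.23 from SW480 on the log2 scale (SE 0.43, adjusted p = 0.03) and by 1.47 from SW480-B (SE 0.25, adjusted p = 0.011). In SW480-B its log2 fold change from SW480 was -0.73 (SE 0.41, adjusted p = 0.44). The call against SW480 held in 2 of the 6 fits without 1 library, and was lost without replicate 2 of SW480 (adjusted p = 0.11) and without replicate 1 (adjusted p = 0.082), 2 (adjusted p = 0.13) or 3 (adjusted p = 0.12) of SW480-gRNA-B-all. That against SW480-B held in 4 of 6, and was lost without replicate 2 (adjusted p = 0.056) or 3 (adjusted p = 0.057) of SW480-gRNA-B-all. Fitting all 9 libraries together (adjusted p = 0.066) and summing those replicates 2 and 3 (adjusted p = 0.056) ended it too, and the sum also ended the call against SW480 (adjusted p = 0.12).

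**Figure D2:**
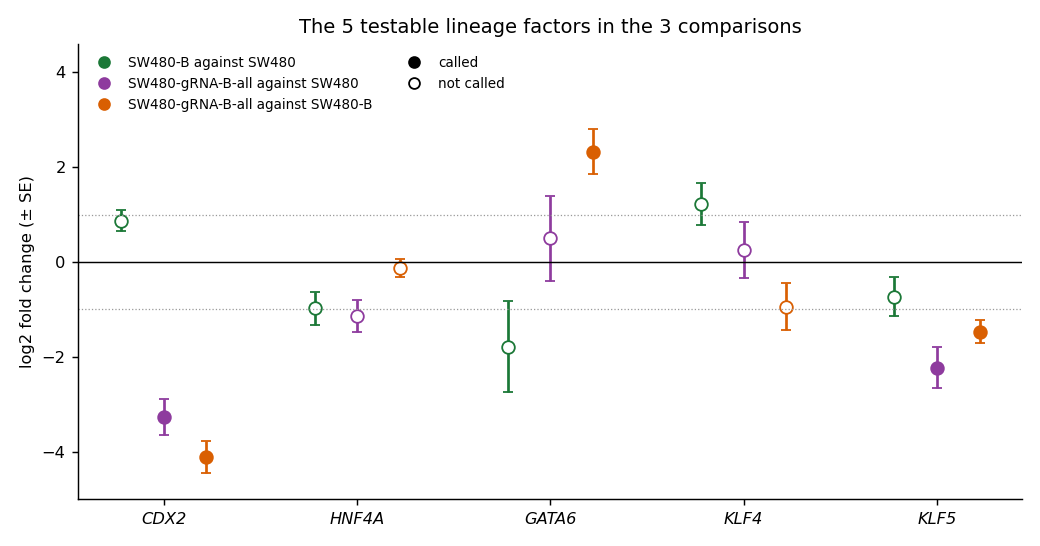
Log2 fold changes with standard errors of the 5 factors that could be tested, in the 3 comparisons of lines, from edgeR; filled points were called and dotted lines mark a 2-fold change. CDX2 lies at 0.87 in SW480-B and at -3.28 in SW480-gRNA-B-all, each against SW480, and the filled points against SW480-B are CDX2 at -4.12, GATA6 at 2.33 and KLF5 at -1.47.

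Compared per kilobase of exon, the factors kept KLF5 in first place in each line, at 81.0 ± 43.0 CPM per kb in SW480, 47.9 ± 13.8 in SW480-B and 17.3 ± 4.01 in the SW480-gRNA-B-all line (SD, n = 3 each). CDX2 took the second place in SW480 (9.76 ± 1.86 CPM per kb) and SW480-B (17.5 ± 1.47), and the fourth in SW480-gRNA-B-all (1.00 ± 0.492), below KLF4 (5.34 ± 4.06) and HNF4A (2.88 ± 0.360). The length used joins all annotated exons of a gene, 10167 bases for HNF4A and 3517 for CDX2, and the places below KLF5 depend on it. In CPM the mean of HNF4A in SW480 (64.4) lay above that of CDX2 (34.3), with overlapping libraries. The libraries of HNF4A and KLF4 overlapped in SW480 and in the SW480-gRNA-B-all line, so that their order is not resolved there, and in SW480-B KLF4 (10.2 ± 4.10 CPM per kb) lay above HNF4A (3.15 ± 0.524) in every library. HNF4G, GATA6 and CDX1 overlapped in SW480, at means of 0.654, 0.263 and 0.169 CPM per kb.

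Within SW480, 6 of the 7 detected factors had their lowest level in replicate 3, the exception being CDX2, which was highest there. In SW480-B the 6 factors with any count were also lowest in replicate 3, HNF4G among them on 1, 1 and 0 counts. In SW480-gRNA-B-all 4 factors were lowest in replicate 2 and CDX2 in replicate 3. Over all genes tested, replicate 3 was lowest for 37.5% in SW480 and 37.2% in SW480-B, and replicate 2 of SW480-gRNA-B-all for 29.6%. BASP1 itself was lowest in replicate 3 of SW480, and the part of these library differences in the results was not tested.

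The genes whose log2 CPM followed each tested factor most closely over the 9 libraries were OXR1 and PDE4D for CDX2 (Pearson's r = 0.991 and 0.98), PDZD8 and TRIM9 for HNF4A (0.99 and 0.984), and STPG1 and ZFHX2 for GATA6 (0.953 and 0.951). AMIGO2 and FOSB were closest to KLF4 (0.969 and 0.963), and CSMD3 and ANKH to KLF5 (0.993 and 0.993). These are descriptions over 9 libraries that share 3 lines.

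CDX2 forms the ParaHox cluster with the homeobox genes PDX1, whose start lies 49315 bases from that of CDX2, and GSX1, 176832 bases away on the same side. GSX1 had 13, 12 and 25 counts in SW480 and 76, 44 and 39 counts in SW480-B, against 0, 0 and 1 in SW480-gRNA-B-all, a ratio 173-fold lower than in SW480-B (counting interval 30.6 to 6870, adjusted p = 0.0028). In that comparison GSX1 passed the filter on low counts through SW480-B alone, which fixes its direction. PDX1, which drives pancreatic and duodenal development, had 2.62, 2.96 and 6.07 CPM in SW480, 5.53, 5.92 and 7.63 CPM in SW480-B and 3.62, 2.34 and 2.64 CPM in SW480-gRNA-B-all, and was called lower than in SW480-B (log2 fold change -1.15, adjusted p = 0.0452). The PDX1 call held in 1 of the 6 fits without 1 library and in 6 of the 8 fits that kept every library. The 17 genes tested within 1 Mb of CDX2 had a median change of -0.09 on the log2 scale in this comparison, against -0.30 for the 274 genes tested on chromosome 13, and 3 were called, FLT1 being higher (1.45, adjusted p = 0.045). The nearest gene tested, LINC00543 at 15789 bases, had -2.11 (adjusted p = 0.0553) and was not called. LNX2, at 348786 bases, had an adjusted p of 0.021 with a change under 2-fold (-0.86). MTUS2, 851024 bases from CDX2 on the side away from PDX1, was lower than in SW480 in both BASP1-expressing lines (-3.80, adjusted p = 0.0499 in SW480-B and -3.55, adjusted p = 0.035 in SW480-gRNA-B-all). MTUS2 passed the filter through SW480 alone, which fixes its direction.

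All 4 genes tested within 1 Mb of KLF5 lie 272843 to 327347 bases before its start. In SW480-gRNA-B-all against SW480-B they had log2 fold changes of -0.60 (BORA), -0.69 (PIBF1), -0.88 (DIS3) and -1.06 (MZT1), of which MZT1, which encodes a component of the γ-tubulin ring complex, was called (adjusted p = 0.023), and DIS3 had an adjusted p of 0.033 with a change under 2-fold. Against SW480 the values were -0.51, -0.84, -0.67 and -1.30 in the same order, and MZT1 was again called (adjusted p = 0.009). The medians of the 4 were -0.79 and -0.75, against -0.30 and -0.07 over chromosome 13. In SW480-B against SW480, where KLF5 had -0.73, their median was 0.01, with 0.25 for DIS3 and 0.13 for BORA, and none was called.

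Around the other factors, HNF4A had 25 to 27 tested neighbours with medians between 0.03 and 0.31. Of these, SGK2 was called lower (-2.17, adjusted p = 0.036) and ADA higher (1.07, adjusted p = 0.032) in SW480-gRNA-B-all against SW480. In SW480-B against SW480, SGK2 had -3.08 (adjusted p = 0.064) and ADA -0.09 (adjusted p = 0.94), and neither was called. SGK2 passed the filter through SW480 alone in both comparisons, which fixes its direction. GATA6 had 7 tested neighbours with medians between -0.13 and 0.24, CABLES1 alone being called (-2.99 in SW480-gRNA-B-all against SW480, adjusted p = 0.036). CABLES1 had a similar change in SW480-B against SW480 (-2.78, adjusted p = 0.083), which was not called. CASC9, a long noncoding RNA whose start lies 55587 bases before that of HNF4G, had 117, 46 and 13 counts in SW480 and 0 in every library of both other lines. It was at least 56.4-fold lower in SW480-B and 61.3-fold lower in SW480-gRNA-B-all, or 28.6-fold and 31.1-fold if replicate 1 of SW480 is left out. It had the order of the SW480 libraries seen for HNF4G. That order was also seen for HNF4A, GATA6 and KLF5, on other chromosomes, but not for CDX1, CDX2 or KLF4.

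**Figure D3:**
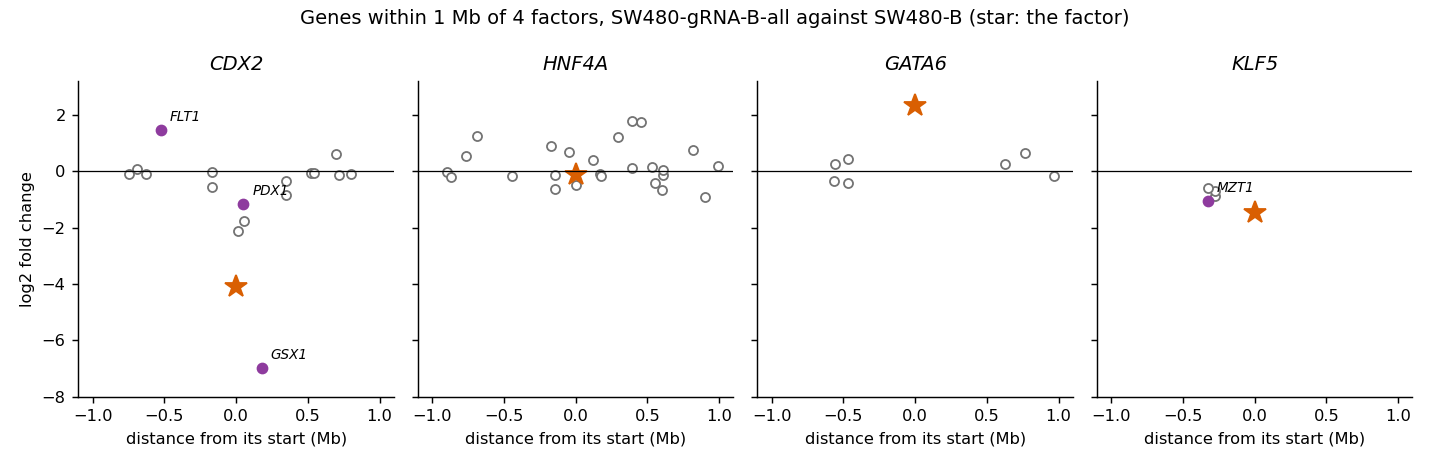
Log2 fold change between SW480-gRNA-B-all and SW480-B of each tested gene within 1 Mb of the start of CDX2, HNF4A, GATA6 or KLF5, by distance along the direction of transcription; filled points were called, and the star is the factor itself. Beside CDX2 at -4.12, its cluster neighbours GSX1 (-6.99) and PDX1 (-1.15) are the called genes below 0, while HNF4A and GATA6 have no called neighbour. GSX1 passed the filter on low counts through SW480-B alone, which fixes its direction.

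Of 38 other endodermal and intestinal transcription factors, 31 were tested in the SW480-gRNA-B-all line against SW480, where 6 were called lower and 0 higher, at a median change of -0.47 on the log2 scale. In SW480-B, 2 of 30 were called lower and 0 higher, with a median of -0.40. Over all genes tested the medians were -0.05 and -0.004, and 4.66% and 1.25% were called lower. These shares also apply beside the counts of the lists below. The factors called lower in both BASP1-expressing lines were MYB, which maintains crypt progenitors (-4.05, adjusted p = 0.012 in SW480-B and -3.56, adjusted p = 0.014 in SW480-gRNA-B-all), and the epithelial ETS factor EHF (-2.38, adjusted p = 0.04 and -3.71, adjusted p = 0.021). FOXA2, a pioneer factor of endoderm, was called in the SW480-gRNA-B-all line (-3.29, adjusted p = 0.02) and had -2.0 in SW480-B (adjusted p = 0.11). ASCL2, a factor of intestinal stem cells, had 44.6 to 61.5 CPM in SW480, 22.7 to 28.8 in SW480-B and 3.22 to 5.37 in SW480-gRNA-B-all. It was called lower in the SW480-gRNA-B-all line against SW480 (-3.62, adjusted p = 0.0047) and against SW480-B (-2.53, adjusted p = 0.0017), in all 6 fits without 1 library each time, whereas its step from SW480 to SW480-B was not called (-1.05, adjusted p = 0.078). Of the calls in SW480-gRNA-B-all against SW480, those of MYB and EHF held in 3 and that of FOXA2 in 2 of the 6. Without replicate 1 or replicate 2 of SW480-B, no gene was called between SW480-B and SW480, so that every call named for that pair rests on both libraries.

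Among 30 relatives of the factors in the CDX, GATA and KLF/SP families, 21 were tested. Relative to SW480, the SW480-gRNA-B-all line had KLF9 called higher (1.81, adjusted p = 0.037) and SP5, a target of WNT signaling, and KLF12 called lower (-2.91, adjusted p = 0.0028 and -1.05, adjusted p = 0.029). SP5 had 131 to 150 CPM in SW480, 68.6 to 87.0 in SW480-B and 18.0 to 19.5 in SW480-gRNA-B-all, and its difference between SW480-B and SW480 was not called (-0.77, adjusted p = 0.13). Its calls in SW480-gRNA-B-all held in all 6 fits without 1 library, that of KLF9 held in 2 and that of KLF12 in 1. In SW480-B none of the 21 was called. Against SW480-B, SP5, KLF15, GATA2 and TRPS1, an atypical GATA protein, were called lower in the SW480-gRNA-B-all line, and the list had a median of -0.40. The KLF15 call held in 1 of the 6 fits without 1 library, that of GATA2 in 2 and that of TRPS1 in 3. Of 22 cofactors and regulators of the factors, 20 were tested. The GATA cofactor ZFPM1 was called lower in both lines (-1.77, adjusted p = 0.0459 and -1.73, adjusted p = 0.022), its relative ZFPM2 was called lower in the SW480-gRNA-B-all line than in SW480-B (-3.36, adjusted p = 0.043), and no other was called. In each comparison with SW480, 5% of the cofactors tested were called, against 6.55% of all genes for SW480-gRNA-B-all and 1.34% for SW480-B. The ZFPM1 calls held in 1 of the 6 fits without 1 library in SW480-B and in 2 in SW480-gRNA-B-all, and that of ZFPM2 in 2.

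Of 24 genes known as CDX targets, 7 were tested in the SW480-gRNA-B-all line against SW480, with 4 called lower and 1 higher. In SW480-B, 8 were tested, with 3 called lower and 0 higher. Between SW480-gRNA-B-all and SW480-B, the comparison with the largest change of CDX2, only 4 targets had enough counts to be tested, ABCB1 was called lower and the median was -0.33. Targets such as CDH17 and TFF3, with 0 counts in both other lines, passed the filter through SW480 alone, which fixes their direction, so the counts against SW480 describe the tested genes and not the list. CDH17, VIL1 and CDHR2 were called lower in both lines. The log2 fold change of CDX2 itself was 0.87 in SW480-B, not called, and -3.28 in SW480-gRNA-B-all. CDX1 had 26 counts in SW480, 0 in SW480-B and 1 in SW480-gRNA-B-all. The part of either CDX factor in the changes of the targets was not tested. CDH17, which encodes liver-intestine cadherin, had 531, 179 and 45 counts in SW480 and 0 in each library of both other lines, at least 242-fold lower in SW480-B and 263-fold lower in SW480-gRNA-B-all, or 109-fold and 118-fold if replicate 1 of SW480 is left out. VIL1, which encodes the microvillus protein villin, had 344, 308 and 98.8 CPM in SW480, 29.6, 35.9 and 30.3 CPM in SW480-B and 21.5, 6.81 and 6.34 CPM in SW480-gRNA-B-all. It was called lower in both (-2.94, adjusted p = 0.025 and -4.44, adjusted p = 0.019). CDHR2, a cadherin of the brush border, was called lower in both as well (adjusted p = 0.044 and 0.029). EPHB2, a receptor of crypt cells, was the gene called higher, with 10.7 to 30.3 CPM in SW480 and 56.5 to 75.2 CPM in SW480-gRNA-B-all (1.77, adjusted p = 0.036). In SW480-gRNA-B-all against SW480, the call of VIL1 held in 3 of the 6 fits without 1 library. Those of CDH17, CDHR2, ABCB1 and EPHB2 held in 2. In SW480-B, the calls of CDH17, VIL1 and CDHR2 held in 2. The ABCB1 call against SW480-B held in all 6. The lists of CDX targets, HNF4 targets and brush border genes share members, CDHR2 being in all 3.

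Of 29 HNF4 targets, 11 were tested in the SW480-gRNA-B-all line and 10 in SW480-B against SW480, with 2 called lower in each, CDHR2 and CLRN3, and medians of -0.48 and 0.22. CLRN3 had 588, 416 and 116 counts in SW480, 6, 2 and 3 in SW480-B and 2, 0 and 1 in SW480-gRNA-B-all. It thus passed the filter through SW480 alone, which fixes its direction. Its calls held in 3 of the 6 fits without 1 library in SW480-B and in 4 in SW480-gRNA-B-all. No other HNF4 target tested was called, and the classical apolipoprotein targets APOA1 and APOB did not pass the filter. Of 20 KLF4 and KLF5 targets, 15 were tested and the medians were 0.34 in the SW480-gRNA-B-all line and 0.10 in SW480-B. The cyclin-dependent kinase inhibitor CDKN1C was the single gene called, being lower in SW480-gRNA-B-all (-1.97, adjusted p = 0.02, called in 2 of the 6 fits without 1 library). It makes up 6.67% of the targets tested, near the 6.55% of all genes called in SW480-gRNA-B-all against SW480. CDKN1A, an inhibitor of the same family induced by KLF4, had 0.97 there (adjusted p = 0.13).

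Of 50 brush border and enterocyte genes, 22 were tested in the SW480-gRNA-B-all line against SW480, with 7 called lower and 0 higher. In SW480-B, 4 of 21 were called lower and 0 higher, and the filter bears on these counts as on those of the CDX targets. ANKS4B, a scaffold of the microvillus tip, had 39, 45 and 19 counts in SW480 and 0 in all 6 other libraries, at least 33-fold lower in SW480-B and 35.9-fold lower in SW480-gRNA-B-all. The membrane peptidase MME had 12.4, 9.13 and 1.60 CPM in SW480, at most 0.495 CPM in SW480-B and at most 0.1 CPM in SW480-gRNA-B-all. The ANKS4B call held in 2 of the 6 fits without 1 library in each line. That of MME held in 1 in SW480-B and in 2 in SW480-gRNA-B-all. Against SW480-B, ALPP (-2.17, adjusted p = 0.011), UGT1A1 (-2.13, adjusted p = 0.023) and ABCB1 (-1.38, adjusted p = 0.0056) were called lower in the SW480-gRNA-B-all line and VIPR1 higher (1.04, adjusted p = 0.016). Of these calls, those of ALPP and ABCB1 held in all 6 fits without 1 library, that of UGT1A1 in 4 and that of VIPR1 in 3. ALPP and UGT1A1 have close paralogs with which reads may be shared.

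**Figure D4:**
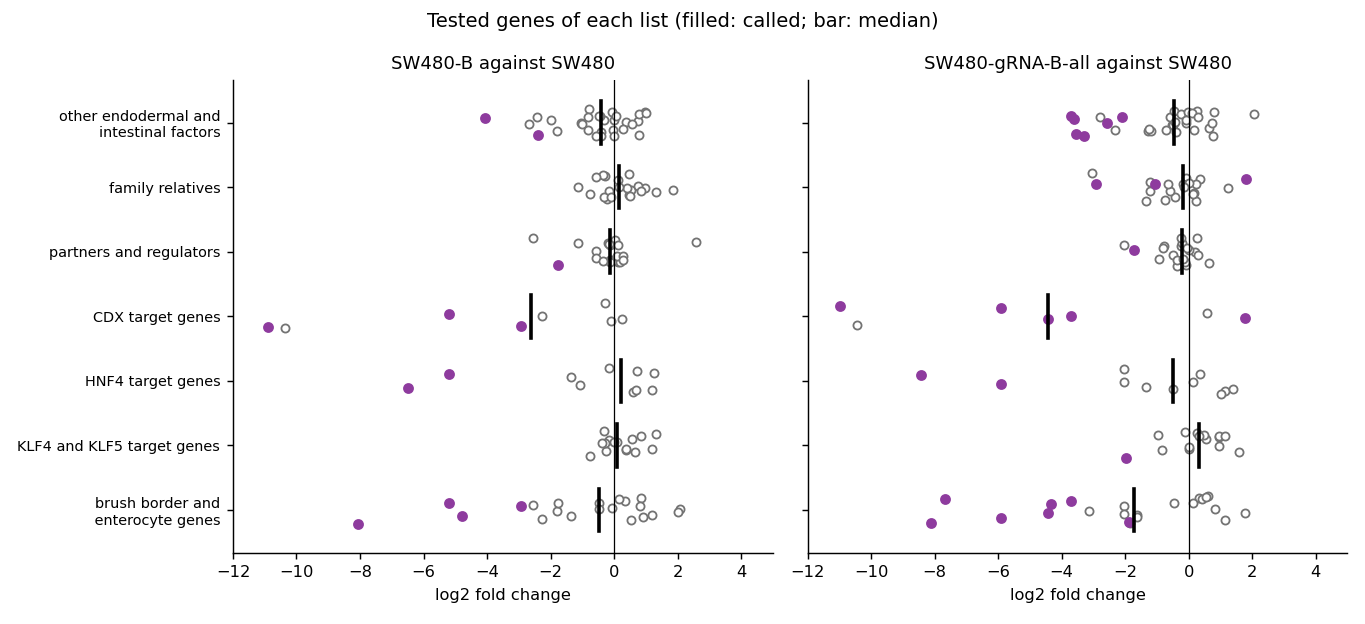
Log2 fold change against SW480 of the tested genes of 7 lists, for SW480-B on the left and SW480-gRNA-B-all on the right, with filled points for called genes and a bar at the median of the genes that passed the filter. VIL1 lies at -2.94 and -4.44 among the CDX target genes, and the medians of the KLF4 and KLF5 target genes lie at 0.10 and 0.34; values near -10 come from genes at or near 0 counts in a line and depend on the prior count of the fit.

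**Figure D5:**
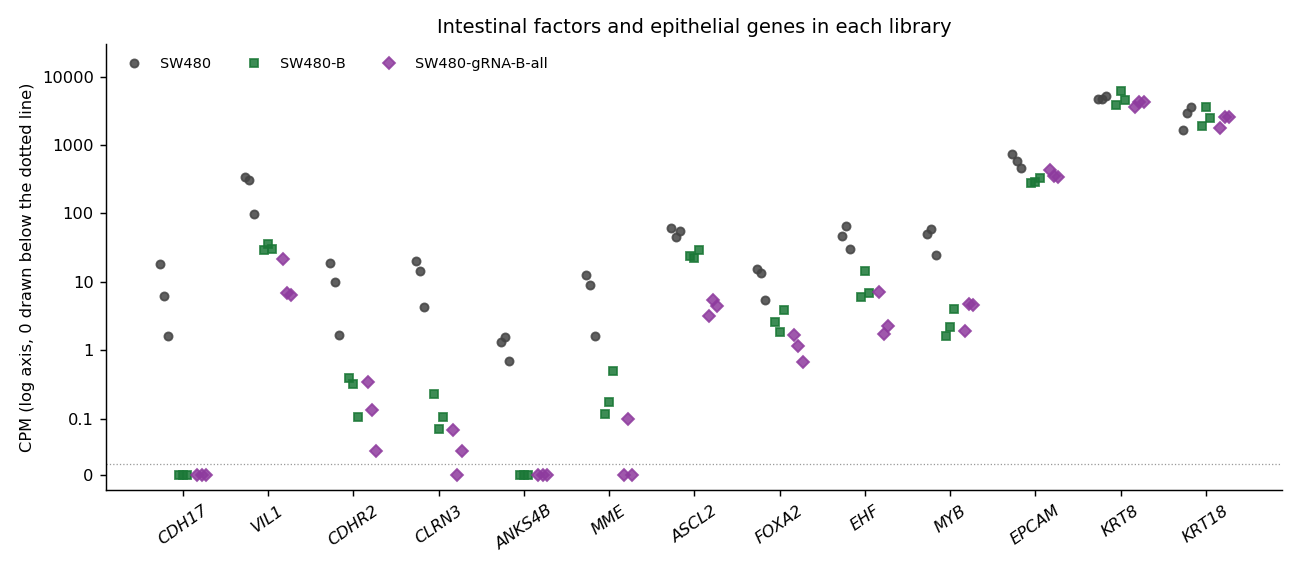
CPM of 13 intestinal factors and epithelial genes in each library on a log axis, with 0 drawn below the dotted line, for SW480 (circles), SW480-B (squares) and SW480-gRNA-B-all (diamonds). CDH17 and ANKS4B are at 0 in all libraries of both BASP1-expressing lines, VIL1 falls to between 6.34 and 35.9 CPM there, and KRT8 and KRT18 stay at 1650 CPM or more throughout.

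Of 21 colonic epithelium markers, 3 of 15 tested were called lower in the SW480-gRNA-B-all line and 2 of 16 in SW480-B against SW480, CDH17 and VIL1 in both, with none higher. TSPAN8, a tetraspanin of colonic epithelium, was the third, with 0.655 to 10.7 CPM in SW480, 2.54 to 7.61 CPM in SW480-B and 0, 0.1 and 0 CPM in SW480-gRNA-B-all. Its call against SW480 held in 2 of the 6 fits without 1 library. It was also called lower against SW480-B (-7.08, adjusted p = 0.0036), in all 6 fits. CDH17, and TSPAN8 in SW480-gRNA-B-all, passed the filter against SW480 through SW480 alone, which fixes their direction. Against SW480-B, TSPAN8 passed the filter through SW480-B alone, which fixes its direction too. EPCAM (-0.68, adjusted p = 0.12), KRT8 (-0.29, adjusted p = 0.41) and KRT18 (-0.24, adjusted p = 0.66) were not called in SW480-gRNA-B-all against SW480. Among 21 foregut and gastric genes, IRX3 was called higher and IRX2 and IRX5 lower in SW480-gRNA-B-all against SW480 (1.66, adjusted p = 0.0475, -1.63, adjusted p = 0.025 and -1.37, adjusted p = 0.042), and none was called in SW480-B. The trefoil peptide gene TFF2 was called lower in the SW480-gRNA-B-all line than in SW480-B (-4.03, adjusted p = 0.0044). The TFF2 call held in all 6 fits without 1 library, and those of IRX2, IRX3 and IRX5 against SW480 in 2 each.

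The summed level of 12 immune markers was 1.89 to 4.58 CPM in SW480, 3.21 to 6.64 in SW480-B and 3.42 to 7.24 in SW480-gRNA-B-all, with PTPRC at no more than 6 counts in any library. The 7 endothelial markers matched summed to 1.24 to 7.11 CPM, and the 12 fibroblast markers to 3.39 to 11.3 CPM, 9 of them under 1 CPM in all libraries. COL1A1 was called higher in the SW480-gRNA-B-all line than in SW480 (1.21, adjusted p = 0.036) and LUM lower in both lines, with 1 count in SW480-B and 0 in SW480-gRNA-B-all against 276 in SW480. Each of these calls held in 2 of the 6 fits without 1 library. LUM passed the filter through SW480 alone, which fixes its direction. The hepatocyte gene ALB had 1079, 90 and 16 counts in SW480, 24, 17 and 5 in SW480-B and 0, 0 and 1 in SW480-gRNA-B-all. The summed level of 10 hepatocyte markers was 58.9 to 281 CPM in SW480, 61.2 to 173 in SW480-B and 111 to 354 in SW480-gRNA-B-all. That of 8 squamous markers was 1500 to 6420 CPM, 2070 to 4170 and 209 to 566 in the same order. Of the squamous markers, 4 were tested against SW480, with 3 called lower in SW480-gRNA-B-all and 0 called in SW480-B. KRT5 had 1430 to 6080 CPM in SW480, 1860 to 3960 in SW480-B and 177 to 549 in SW480-gRNA-B-all (-3.07, adjusted p = 0.039 against SW480). Its call against SW480 and that of KRT13 held in 2 of the 6 fits without 1 library, and that of KRT6A in 5. The squamous factor TP63 had at most 8 counts in any library. The part of these genes in the results on the 8 factors was not tested.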

How the data were processed

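Poly(A) RNA of the 3 lines was sequenced by the authors as stranded paired-end libraries, and the files deposited hold counts per Ensembl gene, raw and without normalization, on GRCh37 per the labels; the aligner named in the file headers is STAR, and the counting program is not given in the sources used here. Reads on no gene (5.22% to 9.93%) and ambiguous reads (3.09% to 3.44%) stayed out of all totals. For each comparison the 6 libraries involved were fitted with edgeR 4.0.16 in R 4.3.3: filterByExpr (least count 10, least total 15), TMM, robust glmQLFit and glmQLFTest, with Benjamini-Hochberg adjustment over all genes tested. The code was tested on simulated data. Counting intervals are 95% exact binomial intervals.

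The 8 factors and 14 gene lists (268 of 269 genes matched by identifier) were chosen with earlier results of these data known, and an item withheld from the lists is not reported here. The rule for naming genes took all 8 factors, BASP1, up to 5 called genes per list, direction and comparison averaging 1 CPM or more in the line where they were higher, cell type markers, called genes within 1 Mb of a factor, and for each tested factor the 2 protein-coding genes with the highest Pearson's r on log2(CPM + 0.5). The rule also took SYNPO, PCYOX1L, ENSG00000255310, ONECUT2 and SLC9A3, which are not described above. The KLF5 neighbours DIS3, PIBF1 and BORA, the CDX2 neighbours LINC00543 and LNX2, and HNF4A-AS1, GATA6-AS1, APOA1, APOB, CDKN1A and TFF3, were named after their values were seen. Exon lengths and coordinates are from GENCODE v44 lifted to GRCh37, and promoter windows from RefSeq were found for 5 of the 8 factors. Same-numbered libraries of SW480-B and SW480 deviated together (r = 0.29, 0.322 and 0.393) and were treated as pairs in the block. In the other comparisons replicates 1 and 3 did so too (r from 0.235 to 0.291) but replicate 2 did not (r = -0.0372 and -0.087). Replicate 2 of SW480-gRNA-B-all instead deviated with replicate 3 of SW480 (r = 0.284) and of SW480-B (r = 0.309). Libraries were therefore not treated as pairs in these comparisons. All libraries carry 1 batch label. Alternatives were RLE factors, no filter, a filter of 1 CPM in 3 libraries, all 9 libraries in 1 fit, the replicate block, DESeq2 1.42.0, each library left out, the sum of replicates 2 and 3 of SW480-gRNA-B-all, other thresholds and CPM without TMM factors. Sequencing metrics files were not used.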

Additional observations from a re-analysis of the deposited data

Results flagged for a closer look

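Between the BASP1-expressing lines, whose difference from each other was tested directly, 3 of the 5 factors tested were called, against 6.68% of all genes tested. Relative to SW480-B, CDX2 was lower in SW480-gRNA-B-all by 4.12 on the log2 scale (log2 fold change -4.12) in 3 of 3 libraries, and its values against SW480 had opposite signs in the lines, -3.28 in SW480-gRNA-B-all (called in 3 of 6 fits without 1 library) and 0.87 in SW480-B (not called, adjusted p = 0.12). KLF5 was lower (log2 fold change -1.47), with values of -0.73 and -2.23 against SW480. GATA6 was higher (log2 fold change 2.33), with values of -1.79 and 0.50 against SW480, neither of which was called. Between the BASP1-expressing lines, GATA6 passed the filter on low counts through SW480-gRNA-B-all alone, which fixes its direction. The calls of KLF5 and GATA6 of SW480-gRNA-B-all against SW480-B were lost when the 9 libraries were fitted together (edgeR adjusted p = 0.066 and 0.18) and when the alike replicates 2 and 3 of the former line were summed (0.056 and 0.06), and that of CDX2 held in both.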

How the results depend on the processing

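Of the results on single factors, 187 kept their direction and their side of the threshold under an alternative, 10 came to pass it and 19 no longer did. In SW480-gRNA-B-all against SW480, 3 results, on GATA6 and KLF4, changed sign, none of them called. GATA6 ranged from -0.01 (without replicate 3 of SW480) to 1.69 when each library was left out, and KLF4 from -0.57 (without replicate 1 of SW480-gRNA-B-all) to 0.76, with -0.04 without replicate 3 of SW480. The cause was not tested.

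Between SW480-B and SW480, 216 genes and 0 factors were called. The genes called numbered 735 with no filter, 143 with at least 1 CPM in 3 libraries, 452 with all 9 libraries in 1 fit, 1096 with DESeq2 and 2424 by a change above 2-fold alone, and from 0 (without replicate 1 or 2 of SW480-B) to 921 (without replicate 3 of SW480) when each library was left out. Factors called numbered 2 with no filter and 2 with DESeq2, CDX1 and HNF4G each time, 2 by the change alone, 1 with the replicate block, and 0 to 3 with each library left out. At an unadjusted p under 0.05 there were 3 of 5 tested factors, CDX2, HNF4A and KLF4, against 15.8% of all genes tested.

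Between SW480-gRNA-B-all and SW480, 1055 genes and 2 factors were called. DESeq2 gave 2380 genes and 5 factors, the change alone 3262 genes, the sum of replicates 2 and 3 of SW480-gRNA-B-all 97 genes and 0 factors, and leaving out each library 8 (without replicate 2 of SW480) to 2659 genes (without its replicate 3) and 0 to 4 factors. All 9 libraries in 1 fit gave 3 factors, as did the change alone. Between SW480-gRNA-B-all and SW480-B, 1059 genes and 3 factors were called. All 9 libraries in 1 fit gave 654 genes and 1 factor, the sum of replicates 446 genes and 1 factor, CDX2 each time, the change alone 2126 genes, and leaving out each library 420 to 1548 genes and 1 to 4 factors.

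With the replicate number as a block, the pairing gave 319, 1199 and 1389 genes in the 3 comparisons in this order, and it changed the call of KLF4 in SW480-B alone among the tested factors. Where a group is left with 2 libraries, the fit pools their spread with that of the other line. Depth limits CDX1, HNF4G, GATA4 and GATA6, whose levels lie within a few counts of 0 in at least 1 line.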
